A study of Mus musculus with 4 samples.

Results

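The 10 genes described here encode inflammasome components, the pyroptotic pore, and interleukin-1 family ligands with a receptor antagonist. These are Nlrp3, Nlrp1b, Pycard, Casp1, Casp4, Gsdmd, Il1a, Il1b, Il18 and Il1rn. They were chosen by gene symbol, and all 10 were found among the 16360 symbols of the count table. RNA-seq had been run on recruited alveolar macrophages, the monocyte-derived cells that enter the airspaces after injury, from male mice of strain CD57/Bl6 aged 8 to 10 weeks. The R213G group was homozygous for R213G, a variant of extracellular superoxide dismutase (EC-SOD, encoded by Sod3), and the WT group carried the unaltered enzyme. Mice of both genotypes had received bleomycin, a lung-injuring drug, intratracheally (100 µl of a 1 U/ml solution), and no group without it is analysed here. The sort, on day 7, kept cells with high CD64, low Siglec-F and high CD11b, and 2 libraries were made per genotype. Whether the libraries are from different animals is not stated, so p-values cover the spread between libraries, which may be technical.

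Inflammasomes are cytosolic complexes in which a sensor recruits, often through an adaptor, a caspase that becomes active by clustering. The active caspase cleaves gasdermin D, whose fragment forms pores in the plasma membrane and causes the lytic death called pyroptosis, and it matures the precursors of interleukin-1 beta and interleukin-18. Interleukin-1 alpha and beta share a receptor, and the receptor antagonist competes with them for it. In the lung, interleukin-1 signalling is known for its part in inflammation after bleomycin. Much of this pathway is controlled by cleavage and release of proteins, which RNA levels do not show.

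Total counts ranged from 33488569 to 35176210 per library. R213G replicate 1 stood apart, with 13584 genes detected against 14598 to 15194 in the other libraries and with the highest level of the non-coding transcript Gm42418, 1689 CPM against 513 to 702 CPM. Log2 fold changes of the 10 genes and of the pathway lists are therefore also given without that library. Fcgr1, which encodes CD64, was at 243 to 261 CPM and Itgam, which encodes CD11b, at 721 to 886 CPM, while Siglecf was at 10.8 to 12.1 CPM. Sod3 had 4 and 47 counts in the R213G libraries, against 47 and 96 in the WT libraries. CPM are counts per 1000000 reads after TMM normalization, a scaling for library composition.

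None of the 10 genes passed the test of a difference between R213G and WT macrophages (edgeR quasi-likelihood test, adjusted p = 1.00 for each). At an adjusted p under 0.05 there were 0 calls among the 10, and 0.0% of the 13575 genes tested were called. At an unadjusted p under 0.05 there were also 0 among the 10, against 2.22% of all genes, and DESeq2 and limma voom called 0 of the 10. The log2 fold changes (R213G over WT) ran from -0.50 for Il1a to 0.19 for Il1rn, 5 positive and 5 negative. Their median was -0.00278, beside -0.00562 over all genes tested. For 9 of the 10 the 95% interval of the fold change lay within 2-fold in either direction, and Il1a was the exception. These intervals cover the spread between the libraries as edgeR models it. All 10 genes passed the filter on low counts, with 441 to 5463 counts in a library.

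**Figure D1:**
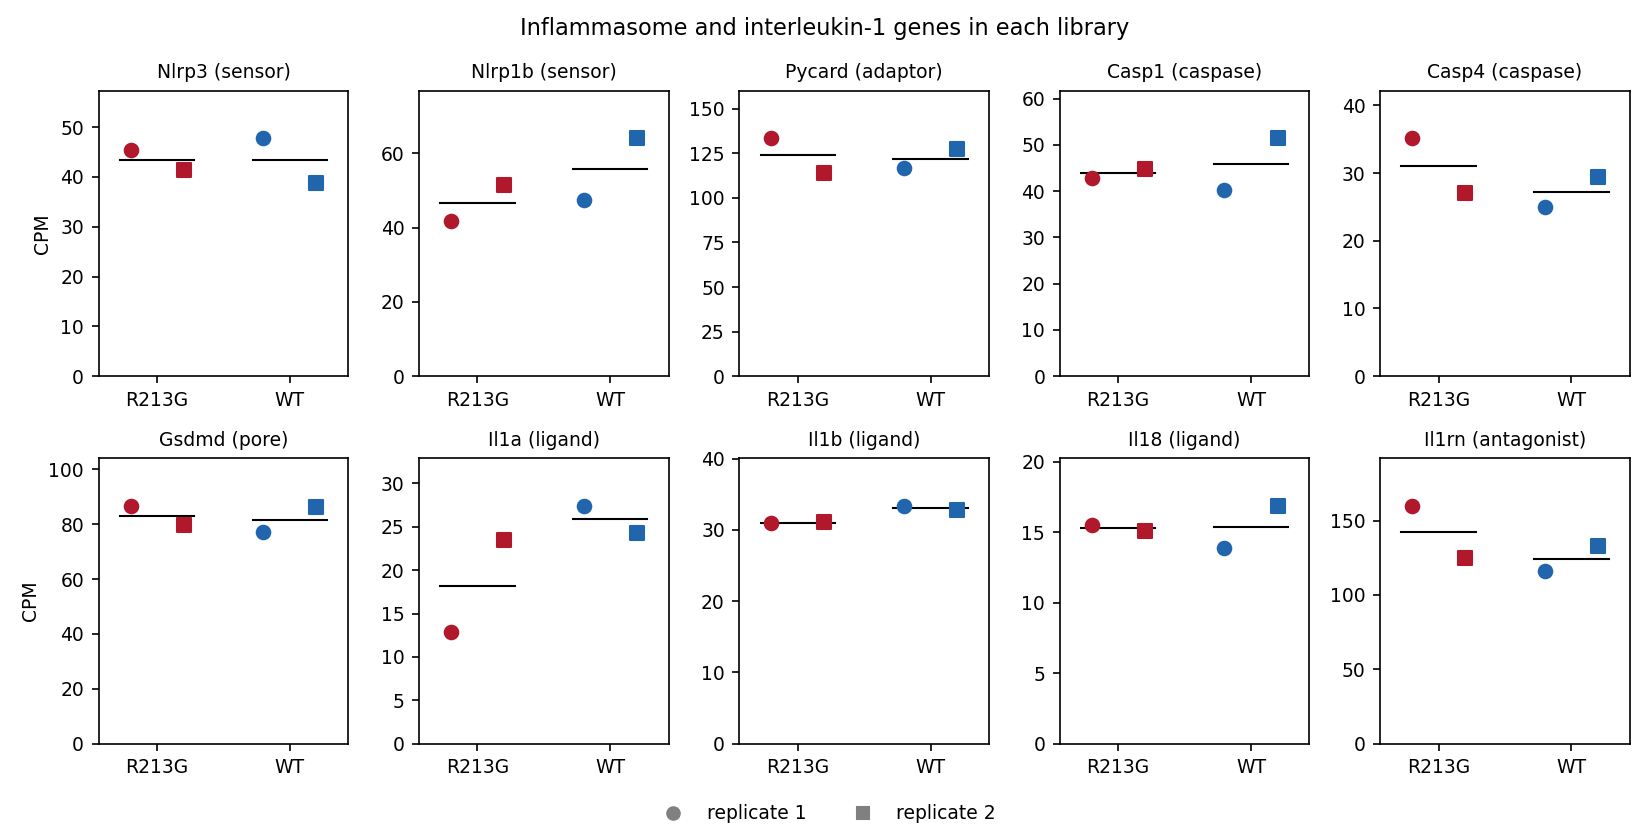
Expression of the 10 genes in CPM on linear axes from 0, with 1 point per library (circle, replicate 1; square, replicate 2) and a line at the mean of each genotype. Il1a lies at 12.9 CPM in R213G replicate 1 and at 23.5 to 27.4 CPM in the other libraries, and the 4 points of Il1b lie between 30.9 and 33.4 CPM.

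**Figure D2:**
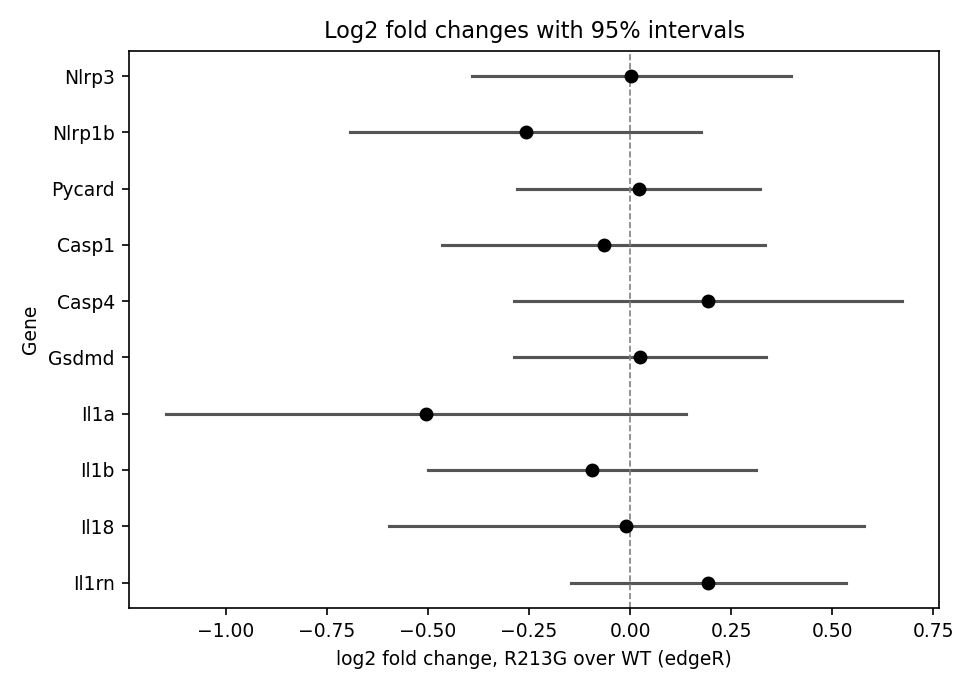
Log2 fold change, R213G over WT, for each of the 10 genes (points) with its 95% interval from the edgeR fit (lines); the dashed line marks no difference. All 10 intervals include 0, and the interval of Il1a, -1.15 to 0.14, is the widest.

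Both sensors were expressed in all 4 libraries, and their levels overlapped between genotypes. Nlrp3, the sensor of potassium efflux and many forms of cell damage, lies on chromosome 11 from 59541568 to 59566956 (GRCm38, plus strand). It had 45.5 and 41.3 CPM in the R213G libraries, against 47.8 and 38.8 CPM in the WT libraries. The R213G values lay between the WT values, and the log2 fold change was 0.0034 ± 0.18 (SE; 95% interval -0.39 to 0.40), and -0.07 without R213G replicate 1. Nlrp1b, a sensor that certain proteases can activate by cleaving it, lies on the same chromosome from 71153102 to 71230733 (minus strand). It had 41.7 and 51.5 CPM in the R213G libraries, against 47.3 and 64.1 CPM in the WT libraries. The genotypes overlapped, replicate 2 was the higher library in each, and the log2 fold change was -0.26 ± 0.19 (95% interval -0.69 to 0.18), and -0.11 without R213G replicate 1. Of the 50-base words of the Nlrp1b transcripts, 1.45% also occur in the neighbouring paralogs Nlrp1a and Nlrp1c-ps, so few reads could be shared with them.

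Downstream of the sensors, the adaptor and the caspases overlapped between genotypes as well. Pycard encodes ASC, the adaptor that links a sensor to caspase-1 and assembles into specks. It had 134 and 114 CPM in the R213G libraries, against 117 and 127 CPM in the WT libraries, with the R213G values on either side of the WT values (log2 fold change 0.02 ± 0.13, and -0.09 without R213G replicate 1). An annotated transcript on the opposite strand, Gm45205, shares 12.8% of the exon bases of Pycard. This transcript had 211 and 38 counts in the R213G libraries, against 28 and 32 in the WT libraries, and the strand setting of the counting is not given in the sources used here. Casp1, the caspase that cleaves the interleukin-1 beta and interleukin-18 precursors, had 42.9 and 44.8 CPM in the R213G libraries, against 40.2 and 51.5 CPM in the WT libraries. The WT libraries enclosed the R213G libraries, and the log2 fold change was -0.07 ± 0.18, and -0.03 without R213G replicate 1.

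Casp4 encodes mouse caspase-11, which binds lipopolysaccharide in the cytosol and cleaves gasdermin D without a sensor complex. It starts 1562 bases downstream of Casp1 on chromosome 9 (5308828 to 5336783, plus strand). It had 35.2 and 27.1 CPM in the R213G libraries, against 25.0 and 29.4 CPM in the WT libraries. R213G replicate 1 was the highest library, the other 3 overlapped, and the log2 fold change was 0.19 ± 0.21. Without R213G replicate 1 it was -0.0068, so the sign rested on that library. The ratio of Casp4 to Casp1 counts was 0.821 and 0.605 in the R213G libraries, against 0.622 and 0.571 in the WT libraries. Gsdmd, which encodes the pore-forming gasdermin D, lies on chromosome 15 from 75862327 to 75867408 (plus strand). It had 86.8 and 79.6 CPM in the R213G libraries, against 77.1 and 86.3 CPM in the WT libraries. The genotypes overlapped, and the highest library was 1.13 times the lowest. The log2 fold change of Gsdmd was 0.03 ± 0.14 (95% interval -0.29 to 0.34), and -0.04 without R213G replicate 1. The counts of Casp1 and Casp4 together, divided by those of Gsdmd, were 0.899 and 0.903 in the R213G libraries, against 0.846 and 0.937 in the WT libraries.

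Il1a and Il1b, the ligands of the interleukin-1 receptor, were the genes among the 10 that were lower in both R213G libraries than in both WT libraries, and they differed from each other in how much they varied. Il1a and Il1b lie on the minus strand of chromosome 2, from 129299610 to 129309972 and from 129364570 to 129371139, with starts 61.2 kb apart. Their promoters are shown because these neighbours both have TATAAA close before the start and have the most and the least variable levels of the 10. Whether the promoters bear on that spread was not tested. Each window runs from 250 bases before to 50 bases after the RefSeq start (GRCm38.p6), chr2:129309923-129310222 for Il1a and chr2:129371090-129371389 for Il1b, printed on the gene's own strand. Capitals mark TATAAA in both and, in Il1a, also a match to TGANTCA, the AP-1 motif.
Il1a: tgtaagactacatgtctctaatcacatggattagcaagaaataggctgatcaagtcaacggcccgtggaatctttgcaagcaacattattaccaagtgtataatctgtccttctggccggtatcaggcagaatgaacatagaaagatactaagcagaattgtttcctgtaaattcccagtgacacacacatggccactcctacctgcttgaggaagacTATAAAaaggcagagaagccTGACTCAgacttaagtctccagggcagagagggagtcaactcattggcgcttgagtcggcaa
Il1b: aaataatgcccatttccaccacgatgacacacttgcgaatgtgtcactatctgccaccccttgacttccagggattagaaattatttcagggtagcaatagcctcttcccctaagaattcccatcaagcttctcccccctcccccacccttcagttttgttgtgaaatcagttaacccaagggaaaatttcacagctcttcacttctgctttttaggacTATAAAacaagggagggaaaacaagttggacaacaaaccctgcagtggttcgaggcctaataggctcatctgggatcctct
The TATAAA of Il1a begins 32 bases before the start and that of Il1b 31 bases before it. The motif, searched on both strands and at any position, occurs in 13.6% of the 32851 promoter windows of the same length.

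Interleukin-1 alpha acts without caspase cleavage and is released by dying cells. Il1a had 441 and 818 counts in the R213G libraries, against 907 and 835 in the WT libraries, or 12.9 and 23.5 CPM against 27.4 and 24.3 CPM. R213G replicate 1 was low, while R213G replicate 2 lay just under the lower WT library. The mean was 18.2 ± 7.49 CPM in R213G, against 25.9 ± 2.20 CPM in WT (SD, n = 2 each). The log2 fold change was -0.50 ± 0.29 (edgeR quasi-likelihood, unadjusted p = 0.111, adjusted p = 1.00; 95% interval -1.15 to 0.14). Leaving out R213G replicate 1 gave -0.14, and leaving out R213G replicate 2 gave -1.005 (edgeR, unadjusted p = 0.0042, adjusted p = 0.287), so the library that stood apart set most of the difference. The gap between the R213G libraries, 0.86 on the log2 scale, exceeded the gap of 0.57 between the genotype means. The transcript Gm14023, on the opposite strand, shares 11.2% of the exon bases of Il1a and had at most 56 counts in a library.

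Interleukin-1 beta is made as an inactive precursor that caspase-1 cleaves. Il1b had 1055 and 1082 counts in the R213G libraries, against 1104 and 1125 in the WT libraries, or 30.9 and 31.1 CPM against 33.4 and 32.8 CPM. All 4 libraries were close together, with both R213G libraries slightly below both WT libraries. The mean was 31.0 ± 0.137 CPM in R213G, against 33.1 ± 0.443 CPM in WT (SD, n = 2 each), a log2 fold change of -0.09 ± 0.18 that did not pass (edgeR quasi-likelihood, adjusted p = 1.00; 95% interval -0.50 to 0.31). This SE draws on the spread of other genes as well as on that of Il1b. Without each library in turn the log2 fold change was between -0.11 and -0.08. Of the 10 genes, Il1b was the gene whose genotype gap exceeded the gap within each genotype, which held for 15.6% of all genes tested. Both R213G libraries were below both WT libraries for 2 of the 10 genes, Il1a and Il1b, against 15.2% of all genes, and both were above for 0 of the 10, against 13.7%.

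The ratio of the highest to the lowest of the 4 libraries was 2.13 for Il1a and 1.08 for Il1b. Among 8534 genes with a mean of at least 10 CPM its median was 1.28. Of those genes, 96.4% had a ratio at or below that of Il1a and 5.07% one at or below that of Il1b. Of the other 8 genes, Gsdmd varied least at 1.13 and Nlrp1b most at 1.54. The ratio of Il1a to Il1b counts was 0.418 and 0.756 in the R213G libraries, against 0.822 and 0.742 in the WT libraries, so R213G replicate 1 was the low value and the other 3 were close.

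Interleukin-18, matured by caspase-1 like interleukin-1 beta, induces interferon gamma in lymphocytes. Il18 (chromosome 9, 50554827 to 50581840, plus strand) had 15.5 and 15.1 CPM in the R213G libraries, against 13.9 and 16.9 CPM in the WT libraries. The R213G libraries lay between the WT libraries, with a log2 fold change of -0.0090 ± 0.26 (95% interval -0.60 to 0.58), and -0.03 without R213G replicate 1. Il18bp, which encodes the soluble protein that neutralises interleukin-18, had 858 and 1010 counts in the R213G libraries, against 955 and 995 in the WT libraries. The ratio of Il18bp to Il18 counts was 1.62 and 1.92 in R213G, against 2.08 and 1.72 in WT, and the genotypes overlapped.

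Il1rn, which encodes the interleukin-1 receptor antagonist, lies on chromosome 2 from 24336853 to 24351494 (plus strand). It had 160.0 and 125 CPM in the R213G libraries, against 116 and 133 CPM in the WT libraries. R213G replicate 1 was high and R213G replicate 2 lay between the WT libraries. The log2 fold change was 0.19 ± 0.15 (95% interval -0.15 to 0.53), and 0.0039 without R213G replicate 1. Without R213G replicate 2 it was 0.36 (edgeR, unadjusted p = 0.0266, adjusted p = 0.332). Il1a and Il1rn were thus the 2 of the 10 genes at an unadjusted p under 0.05 without R213G replicate 2, where the share over all genes was 13.5%. Secreted and intracellular forms of the antagonist arise from different starts, which counts per gene do not separate.

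The balance of antagonist to ligand transcripts was compared within each library, where library scaling cancels. These are ratios of counts and not of molecules, since the transcripts differ in length. There were 5.18 and 4.01 Il1rn counts per Il1b count in the R213G libraries, against 3.48 and 4.05 in the WT libraries. Per Il1a count there were 12.4 and 5.30 in R213G, against 4.23 and 5.45 in WT. Over both ligands together the ratio was 3.65 and 2.28 in R213G, against 1.91 and 2.32 in WT. In all 3 ratios R213G replicate 1 was the highest library and R213G replicate 2 lay between the WT libraries. The mean over both ligands was 1.403 times as high in R213G as in WT with all libraries and 1.08 times without R213G replicate 1. With 2 libraries in each genotype the smallest two-sided p of an exact permutation test is 0.333, so none is reported for these ratios.

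**Figure D3:**
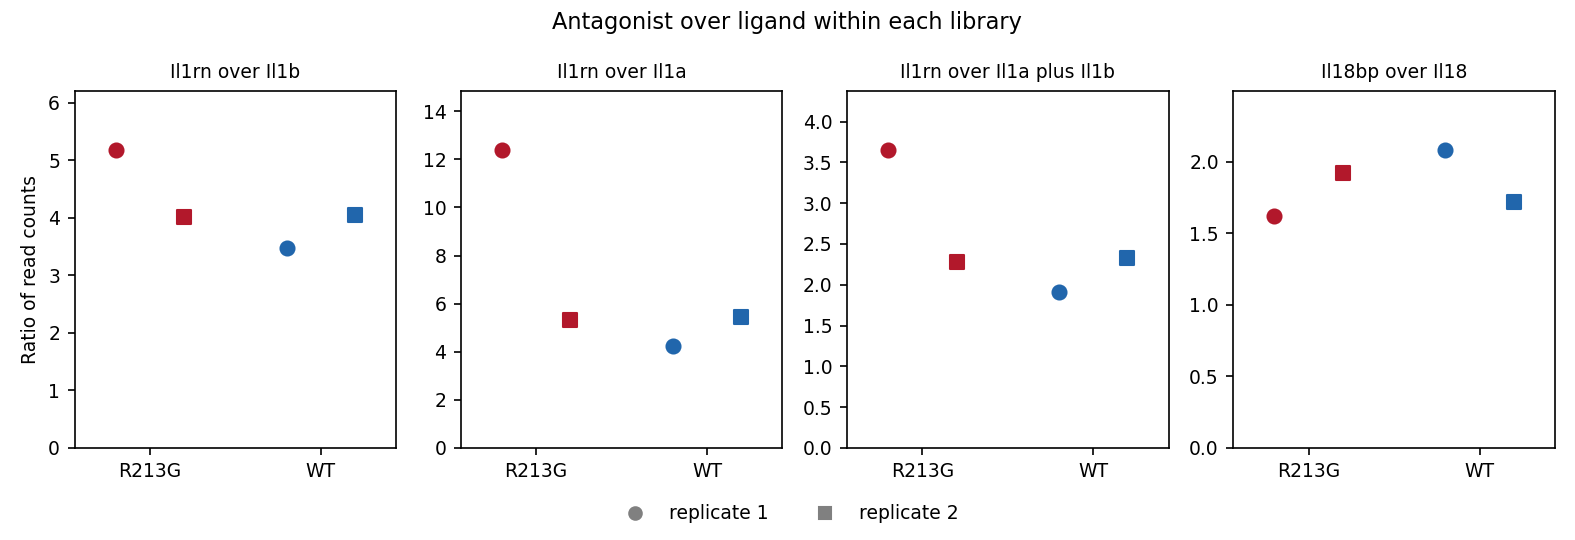
Ratio of read counts of an antagonist to its ligand in each library, on linear axes from 0 (circle, replicate 1; square, replicate 2). R213G replicate 1 is highest in the 3 Il1rn ratios, at 5.18, 12.4 and 3.65, and lowest in the Il18bp to Il18 ratio, at 1.62.

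Levels were compared between genes only per length, as CPM per kilobase of the GENCODE principal transcript, over all 4 libraries. Il1rn (53.9 ± 7.68, SD, n = 4) and Gsdmd (46.0 ± 2.73) were highest and overlapped each other. Pycard (32.4 ± 2.37) and Casp1 (29.9 ± 3.22) followed and also overlapped. Il1b (23.6 ± 0.915), Casp4 (20.3 ± 3.06) and Il18 (19.7 ± 1.59) formed a run in which each overlapped the next, as did Nlrp1b (13.4 ± 2.48), Il1a (11.2 ± 3.20) and Nlrp3 (10.9 ± 1.01) below them. The libraries did not overlap between Gsdmd and Pycard, between Casp1 and Il1b, or between Il18 and Nlrp1b. With merged exons as the length, Gsdmd (34.7 ± 2.05), Pycard, Casp1 and Il1rn (24.1 ± 3.43) were the highest 4, each overlapping the next, and Il1rn moved from the first place to the fourth. Casp4 moved to the last place (7.86 ± 1.18), and the only neighbours whose libraries did not overlap were Il1rn and Il1b. The places of Il1rn and Casp4, and the separation of Gsdmd from Pycard, therefore depend on which transcripts are counted. Both lengths of Pycard are 3800 bases, which may exceed the transcript in these cells, and a shorter transcript would put its level and its place higher.

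The Casp4 promoter is shown because it carried 2 matches to GGNNTTTCC, a short form of the NF-kappaB motif, the most of any promoter window of the 10 genes. This window, chr9:5308599-5308898 (GRCm38.p6, plus strand, RefSeq), has the matches in capitals.
Casp4: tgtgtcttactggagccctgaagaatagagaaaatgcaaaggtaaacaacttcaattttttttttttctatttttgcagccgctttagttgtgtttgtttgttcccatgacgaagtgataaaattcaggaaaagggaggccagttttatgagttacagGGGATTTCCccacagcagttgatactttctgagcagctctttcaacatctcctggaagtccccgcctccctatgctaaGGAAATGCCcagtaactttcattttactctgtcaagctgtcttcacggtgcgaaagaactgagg
They begin 92 and 14 bases before the start, and the second is on the opposite strand. RefSeq promoters matched 9 of the 10 genes, all but Gsdmd. Motifs were searched on both strands, and shares are of the 27025 genes with a promoter window. GGNNTTTCC was present for 3 of the 9 (Casp4, Il1rn and Nlrp3) and for 6.62% of genes. TATAAA was present at any position for 4 of the 9 (Il18, Il1a, Il1b and Il1rn) and for 15.7% of genes. The match of Il18 begins 175 bases before the start and that of Il1rn 14 bases after a start, both on the opposite strand. TGANTCA was present for 2 (Il1a and Il1rn) and for 8.97% of genes. The PU.1 motif GAGGAAGT and the C/EBP motif TTNNGCAA were each present for 2 of the 9, Nlrp1b and Pycard, against 3.69% and 12.2% of genes. The interferon response motif GAAANNGAA was present for 0 of the 9 and for 9.76% of genes. The matches in these windows did not overlap each other. A match describes letters in a window and not a bound site.

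A wider set of 75 genes in 7 lists, the 10 included, placed them in their pathway, and 65 of the 75 were tested. Casp12, with at most 13 counts in a library, and Gsdmc, with 0 in all, did not pass the filter, and 8 others are not analysed here. None of the 65 passed (edgeR, 0 at an adjusted p under 0.05 and 0 at an unadjusted p under 0.05). DESeq2 and limma voom called 0 as well. Fold changes were positive for 35 and negative for 30, with a median of 0.0077 beside -0.0056 over all genes. R213G replicate 1 was the highest library for 28 of the 65, against 31.2% of all genes, and without it 26 fold changes were positive and 39 negative, with a median of -0.03. For 17 genes the genotypes did not overlap, 8 higher and 9 lower in R213G, and the share without overlap over all genes was 28.9%.

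Of the 11 inflammasome sensors tested, 3 were positive and 8 negative, with a median log2 fold change of -0.22. With R213G replicate 1 left out, 5 were positive and the median was -0.0061. Nlrc4, which assembles with NAIP proteins that bind flagellin and secretion-system proteins, was at 18.4 ± 5.74 CPM in R213G, against 22.6 ± 1.54 CPM in WT (log2 fold change -0.29 ± 0.26, and -0.0061 without R213G replicate 1). Mefv, which encodes the sensor pyrin, had a log2 fold change of -0.52 ± 0.48 and Nlrp1a one of -0.24 ± 0.30. These log2 fold changes were -1.07 for Mefv and -0.43 for Nlrp1a without R213G replicate 1. Nlrp6 and Nlrp12 are not analysed here. The Naip genes are close paralogs, and their counts could be split in ways the table does not show.

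Among 6 tested genes of the adaptor and caspase list, 4 were positive, with a median log2 fold change of 0.05. Without R213G replicate 1, 1 of the 6 was positive and the median was -0.04. The initiator caspase gene Casp8 had a log2 fold change of 0.07 ± 0.13 (-0.04 without R213G replicate 1), Card9, an adaptor of lectin receptor signalling, one of -0.07 ± 0.12, and the protease inhibitor gene Serpinb1a one of 0.16 ± 0.38. Of 16 genes for NLRP3 activation and inflammasome regulation, 7 were positive, with a median log2 fold change of -0.02. The count was 10 and the median 0.01 without R213G replicate 1. Nek7, whose protein binds NLRP3 and is needed for its assembly, was at 138 ± 2.75 CPM in R213G, against 118 ± 11.4 CPM in WT (log2 fold change 0.23 ± 0.13; edgeR, unadjusted p = 0.108, adjusted p = 1.00). Txnip, a thioredoxin-binding protein linked to NLRP3, had a log2 fold change of -0.19 ± 0.12, and the interferon-induced GTPase gene Gbp3 one of 0.27 ± 0.18. The log2 fold change without R213G replicate 1 was 0.25 for Nek7, -0.09 for Txnip and 0.07 for Gbp3.

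In the list of the pyroptotic pore and membrane, 5 of 6 tested genes were positive, with a median log2 fold change of 0.05, and R213G replicate 1 was the highest library for all 5. Without that library 1 of the 6, Chmp4b, was positive and the median was -0.08. Ninj1, which ruptures the plasma membrane after gasdermin pores form, was at 100.0 ± 7.70 CPM in R213G, against 116 ± 2.18 CPM in WT. Both R213G libraries were below both WT libraries, but the log2 fold change of -0.21 ± 0.13, and -0.13 without R213G replicate 1, did not pass (edgeR, unadjusted p = 0.137, adjusted p = 1.00). Gasdermin E, listed under its older symbol Dfna5, had 151 and 29 counts in R213G libraries, against 34 and 45 in WT libraries, so R213G replicate 1 was high and the other 3 libraries lay close together. Chmp4b, an ESCRT-III subunit of a complex that removes such pores, had a log2 fold change of 0.05 ± 0.11.

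Beyond the 4 genes above, the ligand and antagonist list held 2 other tested genes, and 2 of all 6 were positive, with 3 positive without R213G replicate 1. Interleukin-36 gamma, under its older symbol Il1f9, had 68 and 55 counts in R213G libraries, against 0 and 46 in WT libraries. Il18bp had a log2 fold change of -0.10 ± 0.20, and 0.0049 without R213G replicate 1. Il33 and 4 other ligand and antagonist genes are not analysed here.

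Of 8 interleukin-1 family receptor genes, 7 were positive, with a median log2 fold change of 0.12, beside 49.1% positive over all genes. R213G replicate 1 was the highest library for all 8. Without that library 1 of the 8, Il1rl1, was positive and the median was -0.49. Dropping WT replicate 2 instead also turned the median negative, to -0.17, with 3 of the 8 positive. Dropping R213G replicate 2 gave a median of 0.58, and dropping WT replicate 1 gave 0.44. The direction of the list therefore depended on which library was left out. Il1rl1, the receptor for interleukin-33, had 353 and 208 counts in R213G libraries, against 167 and 186 in WT libraries (log2 fold change 0.64 ± 0.42; edgeR, unadjusted p = 0.166, adjusted p = 1.00), and 0.19 without R213G replicate 1. Il1r2, a decoy receptor that binds interleukin-1 without signalling, had 742 and 214 counts in R213G libraries, against 493 and 163 in WT libraries. The log2 fold change of Il1r2 was 0.51 ± 0.64 with all libraries and -0.67 without R213G replicate 1. Replicate 1 was the higher library for Il1r2 in each genotype. The same held for the summed dendritic cell markers, at 136 and 44.1 CPM in R213G, against 153 and 39.5 CPM in WT. It also held for the summed epithelial, T and NK cell and B cell markers, but not for each marker in them. Among these, Cdh1, Epcam, Cd3e and Cd79b had that order. Sftpb, Sftpc, Sftpa1, Scgb1a1 and Krt19 were higher in replicate 2 of each genotype. Krt8, Cd3d, Cd3g, Klrb1c and Ms4a1 had neither order in both genotypes. Of the dendritic markers, Ccr7, Cd209a, Flt3 and Zbtb46 had that order. Xcr1 did not, with 0 and 17 counts in R213G, against 0 and 15 in WT. Clec9a had 0 and 20 counts in R213G, against 36 and 8 in WT. Replicate 1 was also the higher library in each genotype for 4 other receptor genes. Il1r1, the signalling receptor for interleukin-1, had 7.12 and 3.39 CPM in the R213G libraries, against 6.17 and 3.58 CPM in the WT libraries. Il1rap, the accessory chain it shares with other family receptors, had 43.3 and 28.0 CPM in R213G libraries, against 42.6 and 28.4 CPM in WT libraries. Il18r1, the ligand-binding chain for interleukin-18, had 7.62 and 3.31 CPM in R213G libraries, against 6.96 and 3.03 CPM in WT libraries. The last of the 4, Il18rap, which encodes the accessory chain for interleukin-18, had a log2 fold change of -0.14 ± 0.28, and -0.46 without R213G replicate 1. The part of dendritic or other cells in the levels of these 5 genes was not tested.

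For receptor signalling, 7 of 12 tested genes were positive, with a median log2 fold change of 0.03. Without R213G replicate 1, 5 were positive and the median was -0.05. Tab3, a subunit of the TAK1 kinase complex, had the smallest unadjusted p of all 65, at 12.1 ± 1.13 CPM in R213G, against 17.2 ± 2.14 CPM in WT (log2 fold change -0.50 ± 0.27; edgeR, unadjusted p = 0.0946, adjusted p = 1.00). Tollip, an inhibitor of interleukin-1 receptor signalling, had a log2 fold change of 0.18 ± 0.16 and the ubiquitin ligase gene Peli1 one of -0.14 ± 0.17. With R213G replicate 1 left out, the log2 fold change was -0.41 for Tab3, 0.38 for Tollip and 0.03 for Peli1.

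**Figure D4:**
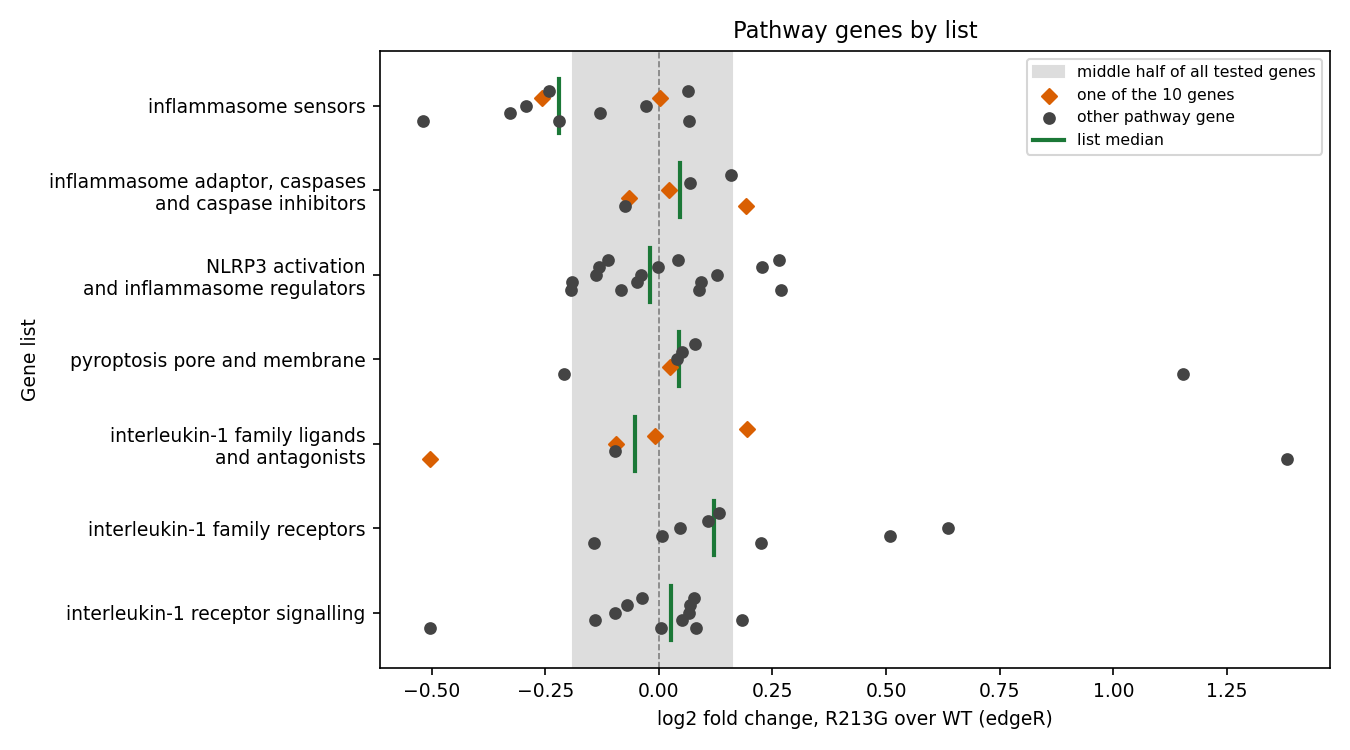
Log2 fold change, R213G over WT, of the 65 tested pathway genes in 7 lists (diamonds, the 10 genes of this account; circles, other genes; green bar, list median). The grey band marks the interquartile range of all 13575 tested genes; with all 4 libraries the medians lie between -0.22 for sensors and 0.12 for receptors, and the points farthest to the right are Il1f9 and Dfna5.

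Single libraries moved the values of several of the 10 genes. With 1 library left out in turn, 6 of the 10 changed sign in at least 1 case: Nlrp3, Pycard, Casp1, Casp4, Gsdmd and Il18. Nlrp1b, Il1a and Il1b were negative and Il1rn positive in all 4 cases, with Nlrp1b between -0.46 and -0.02 and Il1rn between 0.0039 and 0.36. Without R213G replicate 1, 1 of the 10 was positive, Il1rn, and the median was -0.05. None of these values passed the test.

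**Figure D5:**
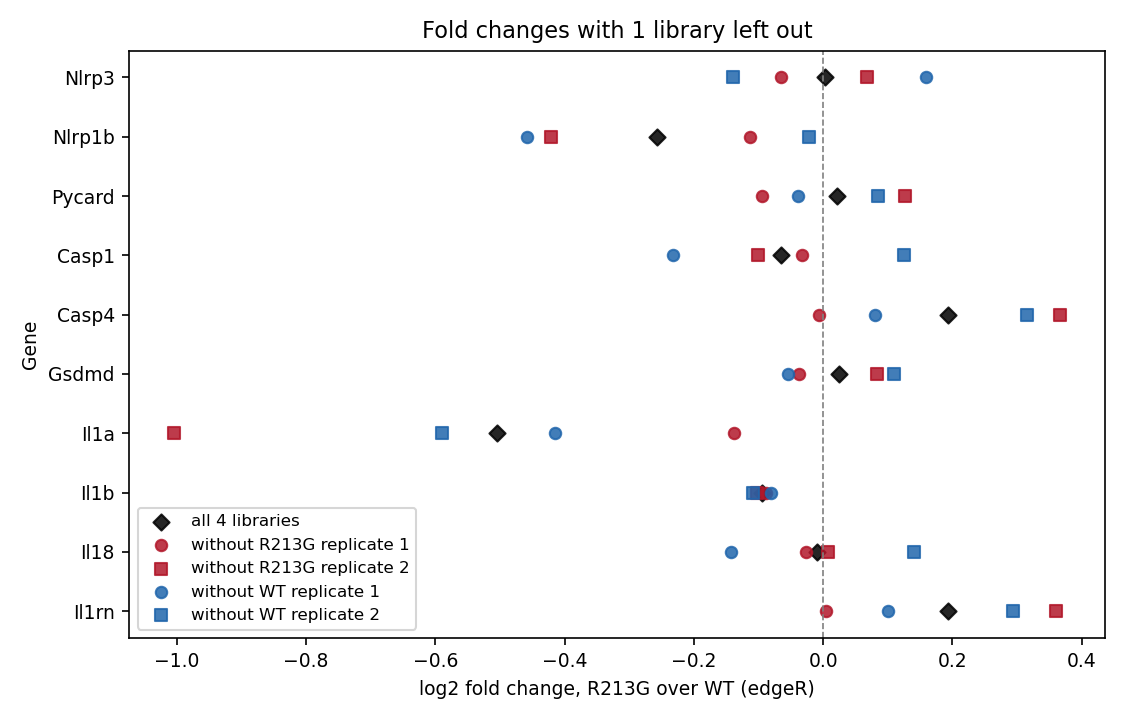
Log2 fold change, R213G over WT, with all 4 libraries (diamonds) and without each library (circle, replicate 1 left out; square, replicate 2 left out; red, R213G; blue, WT). Il1a runs from -1.005 to -0.14, while Il1b stays between -0.11 and -0.08.

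Other cells that express these genes could contribute RNA, and in bulk samples fewer cells of a type and less RNA per cell cannot be told apart. The 9 markers of the sorted cell summed to 24740 and 29256 CPM in R213G, against 31301 and 27501 CPM in WT. Most of this was Lyz2, at 19065 and 23281 CPM in R213G, against 25101 and 21736 CPM in WT. R213G replicate 1 was the lowest library for the sum, Lyz2, Adgre1, Mertk, Csf1r, Cd68 and Ly6c2. It was not the lowest for Itgam or Fcgr1. For Ccr2 it was the highest, at 674 and 472 CPM in R213G, against 477 and 595 CPM in WT. Neutrophil markers, of which 5 of 10 were in the table, summed to 137 and 159 CPM in R213G, against 187 and 180 CPM in WT. Mmp8, which led that list, and Csf3r were lower in both R213G libraries, as were Il1a and Il1b, but S100a8 was not, at 19.7 and 12.2 CPM in R213G, against 11.1 and 13.2 CPM in WT. S100a9 had 0 counts in 3 libraries and 31 in R213G replicate 1, and Cxcr2 had 0 counts in replicate 1 of each genotype. Epithelial markers summed to 221 and 110 CPM in R213G, against 167 and 102 CPM in WT, mostly Cdh1, while Sftpc had at most 8 counts. Resident alveolar macrophage markers, led by Chil3, summed to 253 and 280 CPM in R213G, against 204 and 575 CPM in WT. Chil3 alone was at 198 and 177 CPM in R213G, against 134 and 504 CPM in WT. Car4, Marco and Fabp4 were highest in R213G replicate 2, and Siglecf in R213G replicate 1. Dendritic markers were led by Ccr7. T and NK cell markers, led by Cd3e, and B cell markers, led by Cd79b, summed to at most 2.21 CPM. None of the tested markers passed, and the part of any of these cells in the values above was not tested.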

How the data were processed

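The deposited table holds the authors' raw read counts for each gene symbol in 4 libraries, not normalized. STAR 2.5.1b, Subread 1.4.4 (featureCounts) and GRCm38 are named in the submitters' processing notes, and per the labels' protocols the poly(A) libraries were directional. The annotation release, strand setting and treatment of multi-mapping reads are not given here. Of 16360 symbols, 215 had 0 counts everywhere. Genotypes and replicate numbers came from the titles. No pair of libraries agreed within sampling noise (chi-square per degree of freedom at least 17.5). The lowest value, 17.5, was between R213G replicate 2 and WT replicate 2. The value was 57.1 between the R213G libraries and 33.2 between the WT libraries.

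Counts were tested across all genes with edgeR 4.0.16 in R 4.3.3: TMM normalization, filterByExpr by group (13575 genes), glmQLFit with legacy = FALSE and robust estimation, R213G over WT, and Benjamini-Hochberg adjustment over all genes with a threshold of 0.05. The SE is the size of the log2 fold change divided by the square root of F, and 95% intervals use the fit's degrees of freedom. The script was tested on simulated data. Their spread between libraries (dispersion) was set below the common dispersion of these data, 0.14, so that test does not show how the script behaves at this spread. The alternatives were other scalings and filters, DESeq2 1.42.0, limma 3.58.1 voom, the legacy form, a replicate block and leaving out each library. Positions and lengths came from GENCODE vM21 (GRCm38), and promoters from RefSeq (GRCm38.p6). Of 75 listed pathway genes, 2 were matched by an older symbol. Beside the 10 genes, the text names up to 3 tested genes of smallest p per pathway list, Sod3 and the highest marker of each cell type list. Other names (Gm42418, Lars2, Clrn2, the antisense transcripts, the sort markers, 3 receptor genes (Il1r1, Il1rap and Il18r1) and other single markers) were picked with their values in view. The 10 genes and the lists were chosen with earlier results of these data known. No molecular identifiers were used here, so duplicates stay in the counts.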

Additional observations from a re-analysis of the deposited data

How the results depend on the processing

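Under 8 other settings (2 scalings, 2 filters, DESeq2, the legacy form, limma voom and a replicate block) the 10 genes gave 80 log2 fold changes. Of these 0 changed sign, 0 passed the threshold, and the largest move was 0.06. The count of genes past the threshold was 0 in each of these settings except DESeq2, which called 1 (Clrn2, adjusted p = 0.0145). It ranged from 0 to 2 without 1 library, and the 2 were Gm42418 and Lars2 without R213G replicate 2. The cause was not tested. The count among the 10 genes, and among the pathway genes, was 0 in all 12 cases. The count at an unadjusted p under 0.05 was 302, against 71 without WT replicate 1 and 1960 without R213G replicate 2; it was 201 with limma voom, 271 with DESeq2 and 150 with a mean of at least 5 CPM, where fewer genes were tested. Without 1 library in turn, the median of the 10 log2 fold changes ranged from -0.068 to 0.097. Il1a ranged from -1.005 to -0.14, Il1rn from 0.0039 to 0.36, Nlrp1b from -0.46 to -0.02, Nlrp3 from -0.14 to 0.16, Pycard from -0.094 to 0.13, Casp1 from -0.23 to 0.13, Casp4 from -0.0068 to 0.37, Gsdmd from -0.054 to 0.11 and Il18 from -0.14 to 0.14.

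The replicate numbers were not taken to pair the libraries: same-numbered libraries had a correlation of 0.0926 between their deviations from the group means over 13575 genes, and the labels name no shared batch. With the replicate block 0 genes passed and 298 had an unadjusted p under 0.05. The use of merged exons and the ratios and pathway lists without single libraries were chosen after seeing the data. With 2 libraries per genotype, the 95% intervals hold the changes that these data do not exclude: for Il1a the ratio of R213G to WT ran from 0.452 to 1.10.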
